A study of Gallus gallus with 3 samples.

Results

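The difference that goes with injection of a control oligonucleotide was examined in chick (Gallus gallus) embryos by setting the RNA of somites injected with a scrambled antagomiR against the RNA of somites that were not injected. These are 2 of the 3 libraries in the series, chosen by their labels and not by any measured value. Earlier results of these data were known when the comparison was chosen. All somites came from embryos at Hamburger-Hamilton stages 14 to 16, and the labels name no genotype, strain or further agent. The scrambled library is from injected somites, and the non-injected library is from somites of the opposite side. The third library, antagomiR-206, is from somites that received an oligonucleotide blocking miR-206. It entered the scaling and the filter on low values, and its levels are given beside those of the pair. The labels do not state how many embryos were pooled for a library, or on which embryos' opposite side the non-injected somites lay. Each library was sequenced on a lane of its own, so lane, library preparation and group cannot be told apart.

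Somites are segments of the paraxial mesoderm that form in pairs on either side of the neural tube. The ventral part of each becomes sclerotome, the source of vertebrae and ribs, and the dorsal part becomes dermomyotome, from which skeletal muscle and dermis arise. MicroRNAs are short RNAs that guide a silencing complex to messenger RNAs, mostly through pairing of their seed bases, and miR-206 is one that is found in skeletal muscle and its precursors. An antagomiR is a chemically modified RNA, joined to cholesterol for uptake, that pairs with a microRNA and blocks it. A scrambled antagomiR has the same chemistry and a base order meant to match no microRNA, so it serves as the control for the injection, the chemistry and the handling of the embryo.

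The table lists 15878 Ensembl transcript identifiers and no gene names. Of these, 13036 averaged at least 1 CPM (counts scaled to a common library size with TMM factors) over the 3 libraries and were compared. Of all identifiers, 0 matched the RefSeq gene table used here, so no gene, pathway, cell type or sequence is named below, and the labelled tissue could not be checked against its marker genes. Total counts were 20176114 in the scrambled library, 16496794 in the antagomiR-206 library and 18332350 in the non-injected library. A single count was worth 0.0498 CPM for scrambled somites and 0.0570 CPM for non-injected somites. Each group has 1 library. The differences below are therefore differences between libraries with no replicate check, no test of the condition was possible, and intervals cover counting error only. A lower level can reflect fewer cells of a type or less RNA per cell, and in bulk libraries these cannot be told apart.

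Most transcripts differed little between scrambled and non-injected somites, and most of the large differences were in one direction. The ratio used is log2(CPM + 1) in the scrambled library minus log2(CPM + 1) in the non-injected library, which understates the difference of low transcripts. Its median over the 13036 transcripts was 0.00 (0.00348), and its quartiles were -0.21 and 0.22. Within 1.2-fold of each other were 59.6% of transcripts, and within 1.5-fold 93.1%. Small differences still often exceeded counting error. For 55.6% of transcripts the exact 95% counting interval of the plain CPM ratio excluded equality, with 3672 higher and 3576 lower in scrambled somites. The tails were unequal: the 1st percentile was at -0.89 and the 99th at 0.71, while the lowest ratio was -5.20 and the highest 1.27. Of the transcripts compared, 12 were higher by at least 2-fold in scrambled somites, which is 0.0921%, and 90 were at least 2-fold lower, which is 0.690%.

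The excess of lower transcripts lay in the tail of the ratios. At 1.2-fold, 2629 transcripts were higher in scrambled somites and 2636 were lower. At 1.5-fold these numbers were 355 higher, or 2.72%, and 542 lower, or 4.16%. On this CPM + 1 scale, past 3-fold no transcript was higher and 22 were lower, past 4-fold 13 were lower, and past 8-fold 3 were lower. This is not a ceiling in plain CPM. Some of the 12 transcripts at least 2-fold higher exceeded 3-fold there. Their largest plain ratio was 4.26, from 39 scrambled counts against 8 non-injected counts. A larger plain ratio was left out by the filter on low values: 1 transcript had at least 30 scrambled counts and at most 3 non-injected counts. In plain CPM the lower transcripts reached 756-fold. The balance among small differences depended on the scaling. With library totals in place of TMM, the median ratio moved to 0.06, and at 1.5-fold 510 transcripts were higher (53.9% of those past that threshold, against 39.6% with TMM) and 436 lower. The imbalance past 2-fold remained in direction, with 17 higher and 75 lower under library totals.

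**Figure D1:**
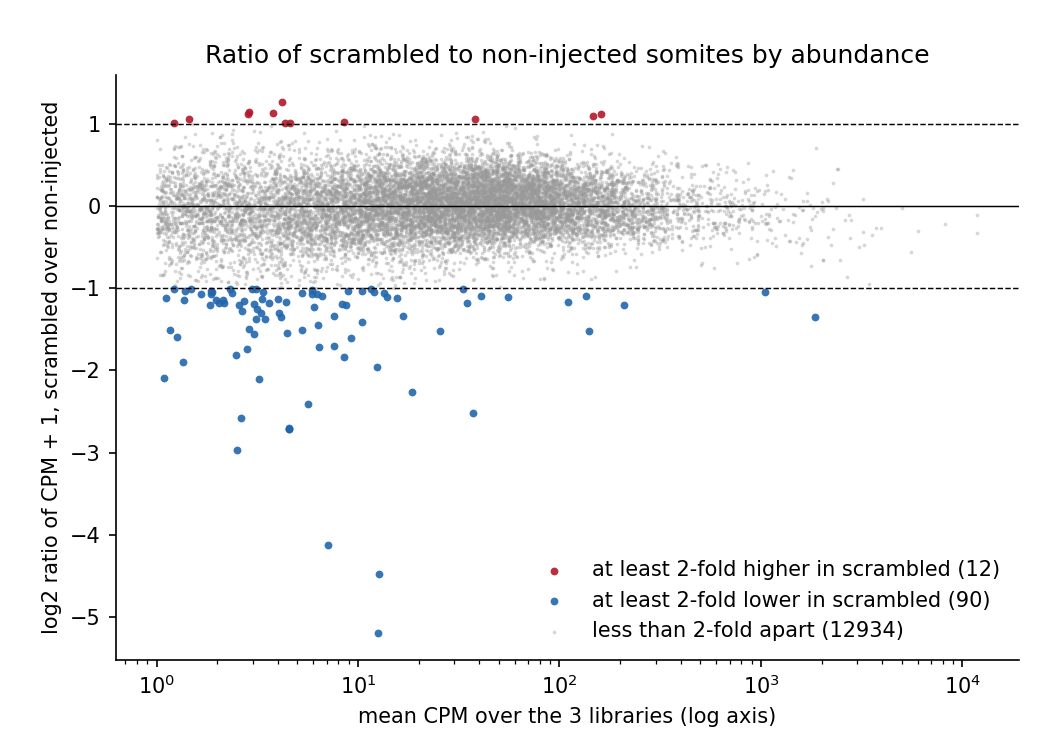
Each point is 1 of the 13036 transcripts compared, with its mean CPM over the 3 libraries on a log axis and its log2 ratio of CPM + 1, scrambled over non-injected, on the vertical axis. Dashed lines mark 2-fold: the 12 red points above stop at 1.27, while the 90 blue points below reach down to -5.20.

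The transcripts with the lowest ratios were close to absent from scrambled somites and readily counted in non-injected somites. ENSGALT00000019056 had 1 count in the scrambled library, 0 in the antagomiR-206 library and 660 in the non-injected library. In CPM this was 0.0498 in scrambled somites against 37.6 in non-injected somites, 756-fold lower in scrambled somites with an exact 95% interval of 135 to 29889. The interval is wide because it rests on a single count. ENSGALT00000026601 had 14 counts in the scrambled library, 14 in the antagomiR-206 library and 646 in non-injected somites. Its level was 0.697 CPM in scrambled somites and 36.8 CPM in non-injected somites, 52.8-fold lower (31.3 to 97.2). These 2 identifiers were named by a rule that took the lowest log2 ratios among transcripts averaging at least 5 CPM in the pair. For both, the antagomiR-206 library was also near 0, so the non-injected library was the one with the high value.

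The next transcripts in order of ratio, described here by rank, were also much lower in scrambled somites. The third-lowest had 5 counts in the scrambled library, 3 in the antagomiR-206 library and 364 in the non-injected library, an 83.3-fold lower level in scrambled than in non-injected somites (35.4 to 258). The fourth had 1 count in the scrambled library, 4 in the antagomiR-206 library and 127 in non-injected somites. The next ranks may not be separate units. Ranks 5 and 6 had the same counts, with 21 in the scrambled library, 3 in the antagomiR-206 library and 217 in the non-injected library, and rank 7 had 21, 4 and 216 in that order of libraries. Whether these identifiers share reads, as isoforms or near-identical copies would, cannot be judged from the sources used here. The same holds for the rest of the 90 lower transcripts, some of which may not be separate units. In rank 8, as in rank 4, the antagomiR-206 library had more counts than the scrambled one, with 5 in the scrambled library, 21 in the antagomiR-206 library and 113 in the non-injected library. Rank 9 was better covered, with 262 counts in the scrambled library, 325 in the antagomiR-206 library and 1391 in the non-injected library, and was 6.08-fold lower in scrambled than in non-injected somites (5.32 to 6.96).

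Most of the lower transcripts differed moderately on the CPM + 1 scale. Of the 90 lower transcripts, 77 had a log2 ratio between -1 and -2. Another 10, at ranks 4 to 13 and so in part described above, had a ratio between -2 and -3. The median ratio of the 90 was -1.20. Their levels in scrambled somites ran from 0 to 1280 CPM with a median of 2.12, against 1.82 to 3261 CPM with a median of 7.81 in non-injected somites. Under 1 CPM in the scrambled library were 25 of them, or 27.8% against 1.49% of all transcripts compared, so these passed the filter on low values through the other libraries. In the same way, 2 of the 12 higher transcripts were under 1 CPM in the non-injected library, or 16.7% against 0.959% of all transcripts compared. Together the 90 held 0.289% of the scrambled counts and 0.687% of the non-injected counts.

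The highest ratios, at most 1.27, were much smaller in size than the lowest ones. ENSGALT00000007915, named by the same rule in the other direction, had 164 counts in the scrambled library, 1 in the antagomiR-206 library and 56 in non-injected somites. Its level of 8.17 CPM in scrambled somites was 2.56-fold that of 3.19 CPM in non-injected somites (exact 95% interval 1.88 to 3.53). The antagomiR-206 library, at 0.0577 CPM, was far below both. ENSGALT00000021577 was more abundant, with 3610 counts in the scrambled library, 3856 in the antagomiR-206 library and 1445 in the non-injected library. It reached 179.8 CPM in scrambled somites against 82.4 CPM in non-injected somites, a 2.18-fold higher level (2.05 to 2.32). Here both injected libraries lay above the non-injected one, unlike for the first.

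The other 10 higher transcripts included few abundant ones. The highest ratio of all, 1.27, belonged to a transcript with 81 counts in the scrambled library, 130 in the antagomiR-206 library and 19 in non-injected somites. The sixth in rank had 3177 counts in the scrambled library, 3601 in the antagomiR-206 library and 1291 in the non-injected library, a 2.15-fold higher level in scrambled than in non-injected somites (2.01 to 2.29). The seventh had 829, 939 and 338 counts in the same order of libraries. The eighth, with 60 counts in the scrambled library, 8 in the antagomiR-206 library and 16 in the non-injected library, was another whose antagomiR-206 level lay below the non-injected one. The median ratio of the 12 was 1.08, with levels of 1.94 to 179.8 CPM in scrambled somites against 0.456 to 82.4 CPM in non-injected somites. Their summed counts were 0.0426% of the scrambled library and 0.0185% of the non-injected library.

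The threshold of 2-fold fell in a continuous range of ratios. Just inside it on the lower side was a transcript at 8.37 CPM in scrambled and 17.8 CPM in non-injected somites, with a ratio of -1.004, and just outside one at 2.24 CPM in scrambled and 5.47 CPM in non-injected somites, with a ratio of -0.998. On the higher side, the last one inside stood at 6.62 CPM in scrambled and 2.79 CPM in non-injected somites, with a ratio of 1.01. The first one outside had 3.04 CPM in scrambled and 1.03 CPM in non-injected somites, with a ratio of 0.99. Membership close to the threshold therefore turned on a few counts.

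The antagomiR-206 library, which took no part in choosing these transcripts beyond the scaling and the filter, was set beside the pair. For the 90 lower transcripts, the median level was 2.12 CPM in scrambled somites, 2.14 CPM with antagomiR-206 and 7.81 CPM in non-injected somites. The quartiles were 0.959 and 6.06 CPM in scrambled somites, 1.01 and 6.51 CPM with antagomiR-206, and 4.20 and 18.0 CPM in non-injected somites. For the 12 higher transcripts, the medians were 6.001 CPM in scrambled somites, 4.94 CPM with antagomiR-206 and 2.48 CPM in non-injected somites. Ratios of the antagomiR-206 library to the non-injected library ran from -5.27 to 0.68 among the 90, with a median of -1.38, and from -1.99 to 2.03 among the 12, with a median of 0.86. Over all 13036 transcripts that median was -0.01. Both sets of ratios are taken over the same non-injected library, so a value peculiar to that library enters both, and its part in the result was not tested.

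**Figure D2:**
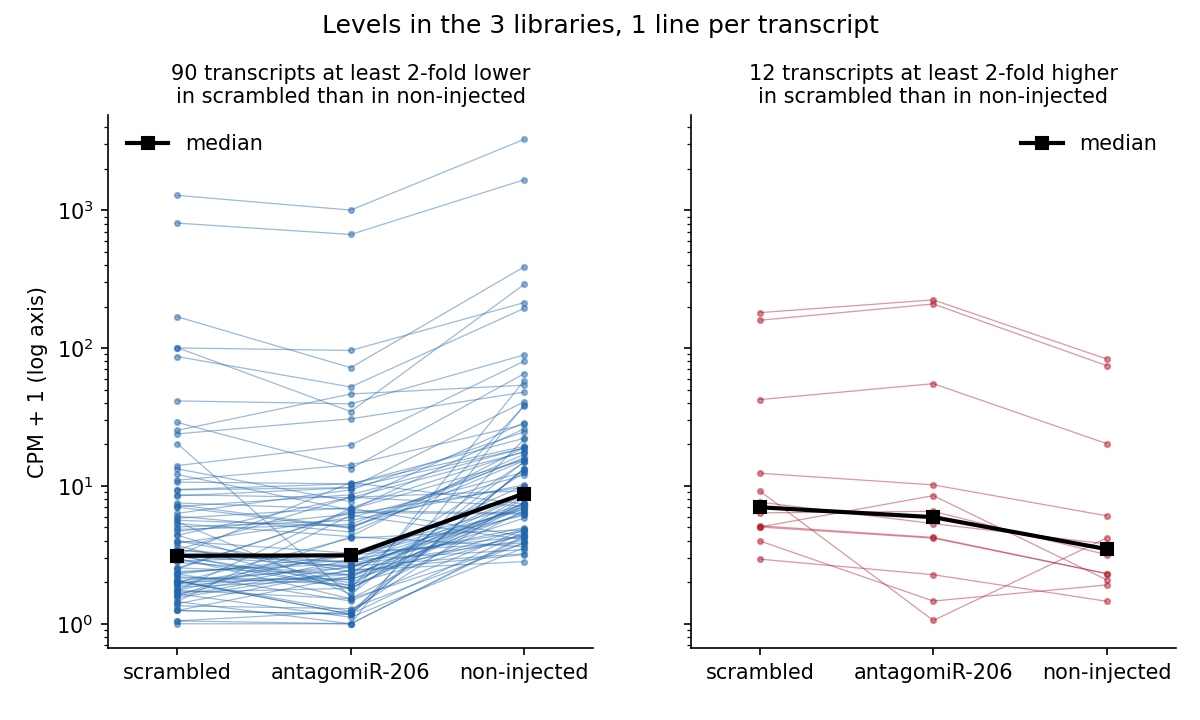
Each thin line is 1 transcript at least 2-fold lower (left, 90) or higher (right, 12) in the scrambled than in the non-injected library, drawn as CPM + 1 on a log axis in the scrambled, antagomiR-206 and non-injected libraries, with the median in black. On the left, the median is 2.12 CPM in scrambled, 2.14 CPM in antagomiR-206 and 7.81 CPM in non-injected somites; on the right, 1 line drops to 0.0577 CPM in the antagomiR-206 library alone.

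Transcripts counted in one library and absent from the other were few and mostly low. For 6 of the 15878 transcripts listed, the scrambled library had at most 3 counts where non-injected somites had 30 or more. The reverse held for 1 transcript, which the filter on low values left out of the comparison, as it did some of the 6. With a count of 0 in one library and more than 3 in the other, the order was the opposite: 29 transcripts were at 0 in scrambled somites and 41 were at 0 in non-injected somites. The scrambled library also had more counts in total, 20176114 against 18332350. With 0 counts in the scrambled library, the highest non-injected count was 57. Against the 3 counts that a count of 0 allows in the scrambled library, or 0.149 CPM, that transcript was at least 21.8-fold lower than in non-injected somites, and it also had 0 counts in the antagomiR-206 library. That bound leaves out the counting error of the non-injected count; the exact 95% interval begins at 17.1-fold. With 0 counts in the non-injected library, the highest scrambled count was 16. Of the 15373 transcripts detected in the scrambled library, 261 were not detected in the non-injected one. Of the 15384 detected in the non-injected library, 272 were not detected in the scrambled one. Loss or gain of detection was thus about as frequent in both directions, and at this depth most such transcripts had too few counts to show a difference.

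Differences past 2-fold lay mostly among low transcripts. Of the 90 lower transcripts, 66 averaged under 10 CPM over the 3 libraries, or 73.3%, as did 9 of the 12 higher ones, against 27.4% of all transcripts compared. The share that was at least 2-fold lower was 2.48% among transcripts of 2 to 5 CPM, 0.639% at 10 to 20 CPM and 0.0452% at 50 to 100 CPM. It did not fall steadily: it was 0.243%, or 3 of 1237 transcripts, at 100 to 200 CPM. At 1000 CPM and over it was 1.98%, or 2 of 101 transcripts, against 0.690% of all transcripts compared. Both shares rest on very few transcripts. The spread of the ratios narrowed less than counting error did. Between 2 and 5 CPM the ratios had an SD of 0.44 over transcripts, against a median SD from counting alone of 0.20. Between 100 and 200 CPM the SD was 0.28, against 0.04 from counting. At 1000 CPM and over it was 0.33, against 0.01 from counting. In every abundance class from 1 CPM upwards the spread over transcripts exceeded that of counting error, and with 1 library per group it cannot be split into an effect of injection and variation between samples.

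**Figure D3:**
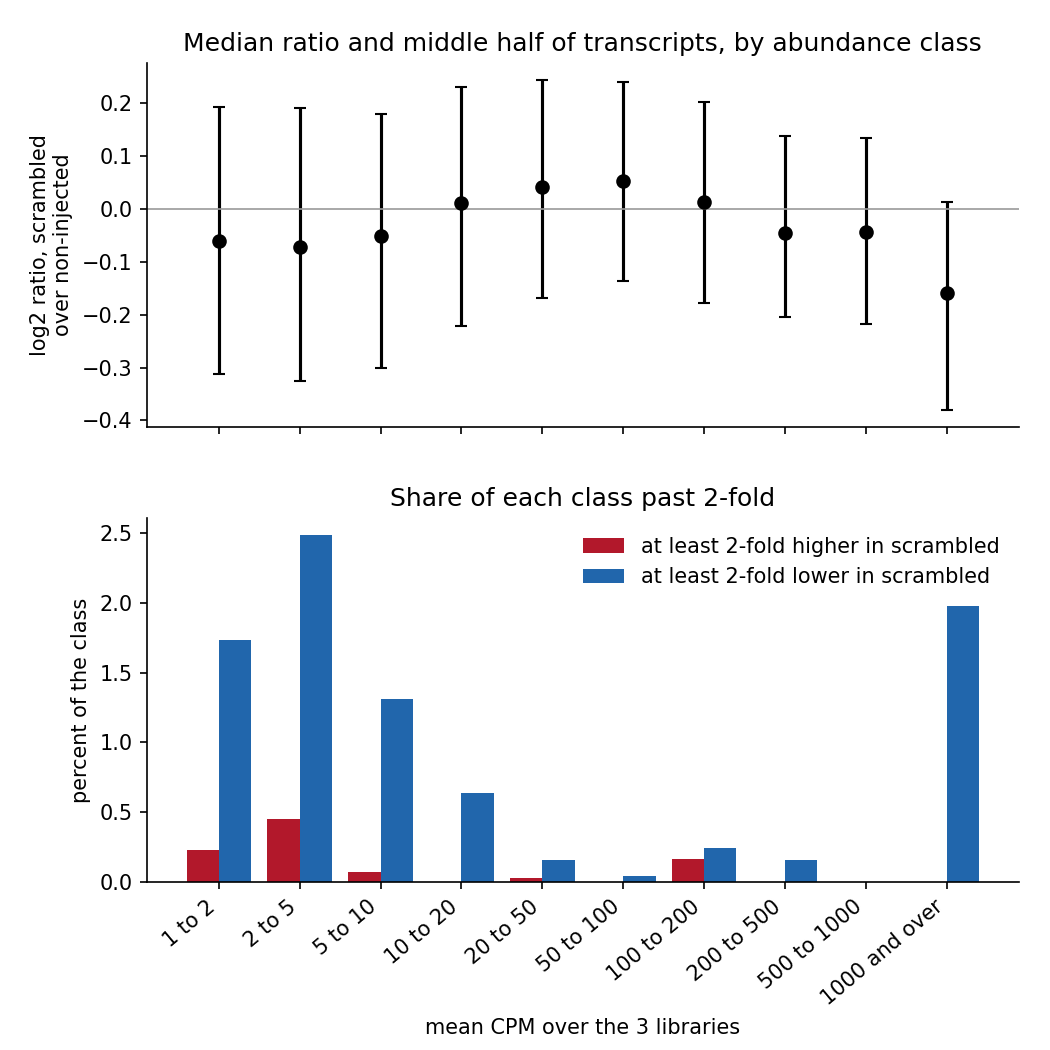
Transcripts are grouped by mean CPM over the 3 libraries. The upper panel gives each class's median log2 ratio of CPM + 1, scrambled over non-injected, with bars from the lower to the upper quartile, and the lower panel gives the percent of the class at least 2-fold higher (red) or lower (blue) in the scrambled library. Medians are below 0 at both ends, at -0.16 for 1000 CPM and over, and the share of lower transcripts is largest at 2 to 5 CPM, with 2.48%.

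The most abundant transcripts were mainly lower in scrambled somites. In the class of 1000 CPM and over, which holds 101 transcripts, the median ratio was -0.16, and 75 of them, or 74.3%, had a ratio below 0. Over all 13036 transcripts compared, 6457 had a ratio below 0 and 6579 had one above 0. In the other classes the share below 0 was at most 57.2%, at 200 to 500 CPM. It was smallest between 50 and 100 CPM, where the median was 0.05 and 43.0% were below 0. Under library totals the median was -0.10 at 1000 CPM and over and 0.11 at 50 to 100 CPM, since another scaling shifts all classes nearly alike. The classes of 200 to 500 CPM and 500 to 1000 CPM had medians of -0.05 and -0.04, and both turned to 0.01 under library totals. Of the 100 transcripts with the highest mean, 74 had a ratio below 0 with TMM and 62 with library totals. With TMM, 8 of these 100 were at least 1.5-fold lower in scrambled somites and 1 was at least 1.5-fold higher. Over all 13036 transcripts compared, the shares at this threshold were 4.16% lower and 2.72% higher. The numbers among these 100 were not recomputed under library totals.

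Among transcripts averaging at least 100 CPM in the pair, 2164 in number, the largest difference was again a lower level. That transcript had 99.7 CPM in scrambled, 33.7 CPM in antagomiR-206 and 288 CPM in non-injected somites, a level 2.90-fold lower in scrambled than in non-injected somites (exact 95% interval 2.75 to 3.05). The second had 1280 CPM in scrambled somites, 1001 CPM with antagomiR-206 and 3261 CPM in non-injected somites, 2.55-fold lower in scrambled than in non-injected somites (2.51 to 2.59). It was the most abundant of the 90 lower transcripts. Another of this abundance, sixth in order, had 805 CPM in scrambled somites, 666 CPM with antagomiR-206 and 1661 CPM in non-injected somites. In both, as in each of the lower transcripts ranked first to sixth here, the antagomiR-206 library lay below the scrambled one.

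The share of counts lost in the scrambled library was spread over fewer transcripts than the share gained. Taken as plain shares of counts, without TMM, the shares that were larger in the scrambled than in the non-injected library exceeded them by 8.18 percentage points in sum, and the smaller ones fell short by the same sum. The 10 transcripts that lost the most share in the scrambled library made up 18.9% of all share lost, while the 10 that gained the most made up 6.46% of all share gained. For the 100 largest in each direction these were 48.8% of the loss and 22.5% of the gain. The largest loss was of a transcript with 0.276% of the scrambled counts and 0.513% of the non-injected counts. The next was the most abundant transcript of the non-injected library, with 1.16% of the scrambled counts and 1.39% of the non-injected counts. The largest gain was of a transcript with 0.223% of the scrambled counts and 0.131% of the non-injected counts, at 2239 CPM in scrambled, 2026 CPM in antagomiR-206 and 1371 CPM in non-injected somites. The top 10 transcripts by abundance accounted for 6.22% of the scrambled counts (95% Wilson interval 6.21 to 6.23) and 7.27% of the non-injected counts (7.26 to 7.28). The antagomiR-206 library's own top 10 held 5.47% of its counts. The top 1000 accounted for 53.7% of the scrambled counts, 51.7% of the antagomiR-206 counts and 56.1% of the non-injected counts. These gaps exceed counting error, and the variation among replicate libraries is not known here.

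**Figure D4:**
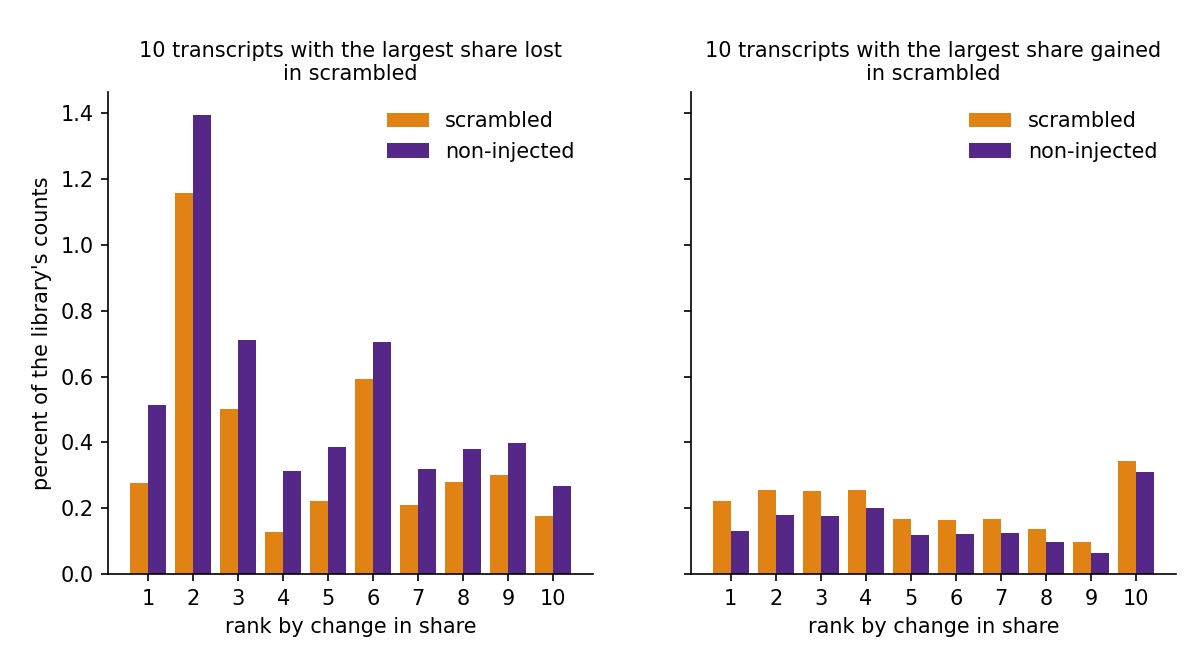
Bars give the percent of each library's counts, scrambled in orange and non-injected in purple, for the 10 transcripts that lost the most share in the scrambled library (left) and the 10 that gained the most (right), by rank. The first loss is 0.276% in scrambled against 0.513% in non-injected somites, and the first gain is 0.223% in scrambled against 0.131% in non-injected somites.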

How the data were processed

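RNA was extracted with Trizol, and libraries from an Illumina mRNA-seq kit were read from both ends, 50 nt per read, per the labels' protocols. The authors deposited whole-number counts per transcript identifier. Aligner, counting method, genome build, use of strand and filters were not given in the sources used. Each column was matched to the sample whose title its letters abbreviate. The identifier was blank in 0 of the rows, and 92 of the compared identifiers had the same counts as another in all 3 libraries. The TMM factors of edgeR 4.0.16 (R 4.3.3), over the 3 libraries, were 0.995 for scrambled, 1.05 for antagomiR-206 and 0.957 for non-injected. Ratios used CPM + 1, with DESeq2 1.42.0 size factors among the alternatives. Fold intervals are exact (Clopper-Pearson) and come from plain CPM, except where a log2(CPM + 1) interval is named, and shares have Wilson intervals. The code was tested on simulated data.

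The rule for named items took, by identifier, the 2 highest and 2 lowest log2 ratios among transcripts averaging at least 5 CPM in the pair, and other transcripts by rank. Items given by rank, and the limit of 100 CPM, were chosen after their values were seen. The comparison, thresholds and lists were chosen with earlier results of these data known. The 18 gene lists drawn up for muscle, other tissues and signalling could not be applied without gene names.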

Additional observations from a re-analysis of the deposited data

Results flagged for a closer look

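The antagomiR-206 library entered the comparison only through the scaling and the filter on low values. In that library, 10 of the 15878 transcripts listed had more than 3 counts while the scrambled and non-injected libraries both had 0. Of these, 8 had 4 counts, 1 had 5 and 1 had 9, against the 3 counts that a count of 0 allows. Within the pair, 29 transcripts had 0 counts in scrambled and more than 3 in non-injected somites, and 41 had the reverse.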

How the results depend on the processing

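The numbers of transcripts at least 2-fold higher and lower in scrambled somites (12 and 90) moved to 54 and 198 when 0.1 CPM was added and to 2 and 28 when 5 CPM was added. With 1 CPM added, they were 4 and 42 among transcripts averaging 5 CPM or more, 355 and 542 at a threshold of 1.5-fold, and 0 and 22 at 3-fold. Other settings kept both within 1.5 times: library totals, DESeq2 size factors, TMM from the pair alone, no filter on low values (16 and 98) and identical counts collapsed (12 and 89). Lower transcripts outnumbered higher ones in each of these settings. At 1.5-fold, however, library totals turned the balance to 510 higher and 436 lower. The median log2 ratio, 0.00348, was 0.0563 with library totals and 0.0160 among transcripts averaging 5 CPM or more. The SD, 0.34, became 0.41 when 0.1 CPM was added, 0.26 when 5 CPM was added, 0.33 without a filter and 0.32 under the 5 CPM filter. A larger pseudocount or threshold lowers these counts by construction, and a stricter filter leaves fewer transcripts. The 4 named transcripts gave 20 recomputed ratios, of which 15 stayed inside the exact 95% counting interval of the reported log2(CPM + 1) ratio. The other 5 came from the pseudocount: with 0.1 CPM and with 5 CPM, ENSGALT00000019056 (-5.20) became -7.98 and -3.08 and ENSGALT00000026601 (-4.48) became -5.53 and -2.88, while ENSGALT00000007915 (1.13) became 0.68 with 5 CPM, below 2-fold. The shares of the 100 most abundant transcripts stayed within their counting intervals when identical counts were collapsed. Leaving out a replicate was not possible. No paired analysis was possible because there is 1 library in a group.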
